A study of Mus musculus with 22 samples.

Results

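The comparison is that of the cerebrum of Tol mice with the cerebrum of wild-type (WT) littermates, and it takes in 8 of the 22 samples of the series, 4 Tol and 4 WT, chosen by the tissue and genotype in the submitters' labels. Tol mice carry 1 copy of a transgene that joins scrambled fragments of reporter and modifier proteins into a single open reading frame. It is driven by the ubiquitous CAG promoter and was placed 3′ of Col1a1 in a C57BL/6J embryonic stem cell line. WT mice are their littermates without it, both are C57BL/6, and the labels give no age for a sample. RNA from frozen tissue was sequenced from stranded, poly(A)-selected libraries, and the question was whether a long, unfolded foreign protein alters the transcriptome of a healthy organ. Libraries are called Tol 1 to Tol 4 and WT 1 to WT 4 after their labels. Their total counts were 23311643, 22147602, 23034101 and 14543698 in Tol 1 to Tol 4 and 21007905, 18049096, 19580706 and 18678051 in WT 1 to WT 4.

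The Tol transcript, which checks the genotype labels, had 3520, 2754, 3348 and 2240 counts in Tol 1 to Tol 4 and 1, 1, 2 and 1 counts in WT 1 to WT 4. On the CPM scale, which sets each count against the total of its library, its level was 144 ± 11.2 (SD, n = 4) in Tol mice (two-sided exact permutation test on log2(CPM + 1), p = 0.0286, which no comparison of 4 mice with 4 can go below). The WT counts lie under the 3 counts per library below which a level was treated as not detectable. The transcript was left out of every count that follows.

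The cerebrum is a mixed tissue. Its cortex and hippocampus derive from the pallium and hold glutamatergic projection neurons, the striatum beneath them holds GABAergic projection neurons with dopamine and adenosine receptors, and glia, vessels and meninges run through and over both. How much striatum or hippocampus enters a sample depends on the dissection. In bulk tissue, fewer cells of a type and less RNA per cell cannot be told apart.

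Markers of pallial projection neurons were at a similar level in every library. Their list of 15 genes had a mean log2(CPM + 1) of 7.14, 7.22, 7.18 and 6.92 in Tol 1 to Tol 4 and of 6.97, 7.18, 6.86 and 7.03 in WT 1 to WT 4. Camk2a, a kinase of excitatory synapses and the most abundant of them, was at 3491, 3989, 3603 and 3254 CPM in Tol 1 to Tol 4 and at 3019.7, 4075, 3061 and 3589 CPM in WT 1 to WT 4. The list as a whole was thus high in all 8 libraries, as the tissue label says.

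The striatal share differed between libraries of the same genotype. The 16 markers of striatal projection neurons had a mean log2(CPM + 1) of 4.45, 3.62, 3.94 and 6.53 in Tol 1 to Tol 4 and of 3.72, 3.77, 7.35 and 3.75 in WT 1 to WT 4. Tol 4 and WT 3 were thus far above the other 6 libraries, 1 library in each genotype. Drd2, the D2 dopamine receptor, was at 4.76, 0.372, 2.27 and 50.2 CPM in Tol 1 to Tol 4 and at 1.97, 1.81, 109 and 1.62 CPM in WT 1 to WT 4. Adora2a, an adenosine receptor of the same neurons, was at 10.3, 2.09, 2.88 and 66.7 CPM in Tol 1 to Tol 4 and at 1.79, 2.09, 142 and 1.41 CPM in WT 1 to WT 4. The summed level of the list was 2827 CPM in Tol 4 and 4891 CPM in WT 3, and between 508.8 and 726.9 CPM in the others, with Pde10a as its most abundant gene. Of the 20 genes with the largest spread over the 8 libraries at a mean of at least 5 CPM, 12 were higher in both Tol 4 and WT 3 than in any other library, among them Penk, Syndig1l, Rgs9, Gpr6, Rxrg and Scn4b.

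Other regions varied too. The hippocampal list of 9 markers had a mean log2(CPM + 1) of 1.61, 1.58, 3.08 and 1.56 in Tol 1 to Tol 4 and of 3.06, 1.95, 1.63 and 3.24 in WT 1 to WT 4, so that Tol 3, WT 1 and WT 4 stood above the rest. Fibcd1, a marker of hippocampal pyramidal cells, was at 8.21, 9.26, 34.0 and 8.75 CPM in Tol 1 to Tol 4 and at 50.5, 25.1, 14.4 and 84.1 CPM in WT 1 to WT 4. The cerebellar list was highest in Tol 2, at 3.36, and in WT 4, at 2.93, against 1.47 to 2.07 in the other libraries. The list of leptomeninges and fibroblasts was at 1.65 in WT 2 and 1.98 in WT 3, and between 2.58 and 3.24 in the others. Cholinergic markers of the basal forebrain followed the striatal list, at 1.56 in Tol 4, 2.46 in WT 3 and at most 0.427 elsewhere. Over all 14 region lists, the first principal component held 35.3% of the variance and was highest in WT 3 and Tol 4. Every list was scaled to the same variance, so lists that were barely detected count as much as the others. The weight in the first component was 0.428 for midbrain, 0.42 for striatal and 0.331 for hindbrain markers. The hindbrain list had a mean log2(CPM + 1) of only 0.25 in Tol and 0.21 in WT. The components therefore do not measure the dissection alone. The second component held 25.5%, and its mean was 0.987 ± 1.77 in the Tol libraries and -0.987 ± 1.61 in the WT libraries (SD, n = 4 each; two-sided exact permutation test, p = 0.200).

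**Figure D1:**
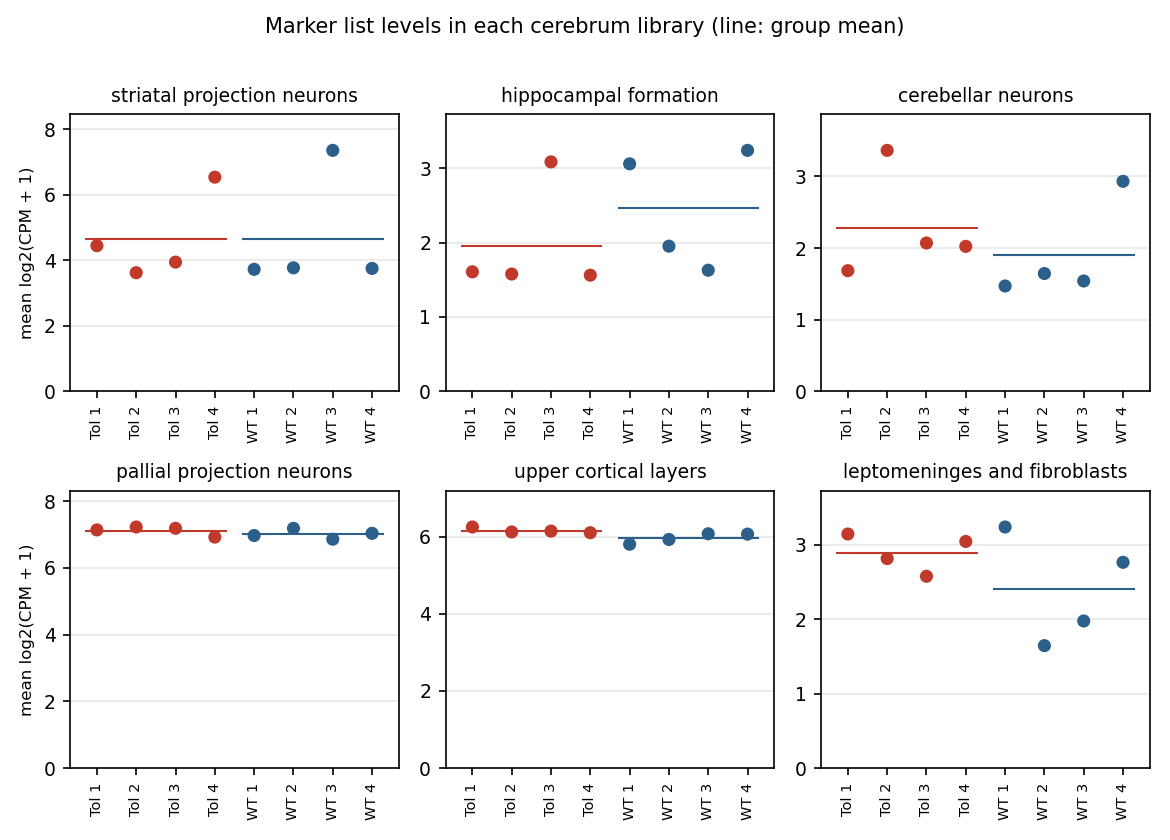
Mean log2(CPM + 1) of 6 marker lists in each cerebrum library, Tol in red and WT in blue, each point 1 library and each line the mean of 4. Tol 4 and WT 3 reach 6.53 and 7.35 for striatal markers, while pallial markers lie between 6.86 and 7.22 in all 8 libraries.

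Of 15596 genes tested with edgeR's quasi-likelihood test, 0 (0%) had an adjusted p under 0.05 (Benjamini-Hochberg; lowest adjusted p = 0.159). At an unadjusted p under 0.05 there were 750 genes higher in Tol, 4.81% of those tested, and 755 lower, 4.84%. DESeq2 gave 180 genes with an adjusted p under 0.05, 73 higher (0.544% of 13427) and 107 lower (0.797%), and the call therefore differs between the tools. The groups did not overlap for 528 genes higher in Tol (3.39%) and 487 lower (3.12%). An absolute log2 fold change over 1 was seen for 129 genes, of which 57 had a mean under 1 CPM. Among the 11738 genes with a mean of at least 5 CPM, the median absolute log2 fold change was 0.09, and 95% of them lay within 0.36.

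Taking marker levels as a rough measure of the dissection made a few genes pass, and how many depended on how the regions were summarised. With the first region component as a covariate, 5 genes (0.0321%) had an edgeR adjusted p under 0.05, namely Mex3b, which was higher in Tol, and Slc2a1, Stk40, Irs2 and Trib2, which were lower. With the first and second components there were 21, of which 14 were higher (0.0898%) and 7 lower (0.0449%), and these included all of the 5. When the levels of the region lists were taken over only the members that passed the filter on low counts, an alternative chosen after the data were seen, 2 components gave 186 genes, 112 higher (0.718%) and 74 lower (0.474%), the 21 among them. With the pallial list as the covariate 1 gene passed, Stk40. The biological coefficient of variation was 16.6% without a covariate, 12.8% with 1 component and 10.1% with 2. Without WT 3, 6 genes passed, Fosl2, Irs2, Kdm6b, Tent5a and Stk40 being lower and Kcnj2 higher in Tol, and without both Tol 4 and WT 3 there were 2, Fosl2 and Irs2. Irs2, Trib2, Fosl2, Kdm6b, Tent5a and Kcnj2 are named here because they were called, and were chosen after their values were seen.

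Slc2a1 (ENSMUSG00000028645; GRCm38 chromosome 4, 119108711 to 119137983, plus strand) encodes the glucose transporter of the blood-brain barrier and of astrocytes. It was at 68.8, 69.5, 64.6 and 69.0 CPM in Tol 1 to Tol 4 and at 92.3, 108, 97.5 and 96.7 CPM in WT 1 to WT 4. All Tol libraries were below all WT libraries, with means of 68.0 ± 2.24 and 98.7 ± 6.77 CPM (SD, n = 4 each). Its log2 fold change was -0.54 (SE 0.06, edgeR adjusted p = 0.159), and -0.60 with 2 region components (edgeR adjusted p = 0.0235). Over all alternatives its adjusted p ran from 4.13e-10, with DESeq2, to 0.364. Its gene overlaps Gm12868, and whether the counting used strand is not given in the sources used here. Of the 22 genes of endothelium and the blood-brain barrier, 11 had a higher and 11 a lower point estimate in Tol, with a median log2 fold change of 0.001 against -0.00488 for all genes tested. Slc2a1, Mfsd2a and Slc7a5 were lower (13.6% against 4.84% of all genes) and Kdr higher (4.55% against 4.81%) at an unadjusted p under 0.05. Flt1 was the most abundant.

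Stk40, a gene for a protein related to serine/threonine kinases, was at 23.3, 24.8, 24.3 and 21.7 CPM in Tol 1 to Tol 4 and at 40.4, 45.5, 33.9 and 39.5 CPM in WT 1 to WT 4, without overlap. Its log2 fold change was -0.76 (SE 0.09, edgeR adjusted p = 0.159, and 0.0195 with 2 region components; from 2.63e-08 to 0.487 over all alternatives). Irs2, an adaptor of insulin and IGF receptors, was at 61.7, 62.3, 67.7 and 50.9 CPM in Tol 1 to Tol 4 and at 107, 114, 71.7 and 113 CPM in WT 1 to WT 4. WT 3 was the WT library nearest to Tol for both genes.

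The other genes with the lowest p among those lower in Tol are given as single genes and not as a group. Srf, the transcription factor that drives many immediate early genes, was at 44.9, 43.2, 43.4 and 42.2 CPM in Tol 1 to Tol 4 and at 54.2, 60.3, 57.5 and 62.7 CPM in WT 1 to WT 4, a log2 fold change of -0.43 (SE 0.06, edgeR adjusted p = 0.159). Nab2, a co-repressor of EGR factors, was at 24.8, 22.2, 30.3 and 21.1 CPM in Tol 1 to Tol 4 and at 39.7, 53.2, 41.5 and 45.2 CPM in WT 1 to WT 4. Neither gene overlapped between the groups. Slc25a25, a mitochondrial carrier of ATP-Mg and phosphate, N4bp3, Grasp, Pdgfb, Klf10, Tiparp, Acer2, a ceramidase, P4ha1, a collagen prolyl hydroxylase, and Gpt2, the mitochondrial alanine transaminase, had log2 fold changes from -0.41 to -1.03 and edgeR adjusted p from 0.159 to 0.165. All 15 genes were lower in each of the 4 Tol than in each of the 4 WT libraries, which the choice by lowest p favours.

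Among genes higher in Tol, Mex3b, which encodes an RNA-binding protein (ENSMUSG00000057706; chromosome 7, 82867333 to 82871515, plus strand), was at 26.8, 24.3, 25.6 and 21.8 CPM in Tol 1 to Tol 4 and at 14.7, 14.2, 12.01 and 16.3 CPM in WT 1 to WT 4. Its log2 fold change was 0.79 (SE 0.10, edgeR adjusted p = 0.159, and 0.0299 with the first region component; from 5.7e-07 to 0.487 over all alternatives). 1190002N15Rik was at 64.1, 67.4, 55.6 and 64.2 CPM in Tol 1 to Tol 4 and at 39.6, 44.3, 32.8 and 39.5 CPM in WT 1 to WT 4. The groups did not overlap for either gene. Grin2a, the GluN2A subunit of NMDA receptors, was at 382, 450, 456 and 415 CPM in Tol 1 to Tol 4 and at 303, 293, 302 and 314 CPM in WT 1 to WT 4 (log2 fold change 0.49, SE 0.07, edgeR adjusted p = 0.159). Zfp46, Klf11, Map3k21, D430041D05Rik, Mbd5, Tanc2, Gm47933, Klf7, Hs3st1, Tmem178b, Tob1 and Arhgap32 had log2 fold changes from 0.29 to 0.96 and edgeR adjusted p from 0.165 to 0.190. Tanc2 encodes a postsynaptic scaffold and Klf7 and Klf11 encode Krüppel-like transcription factors. An alternative with the trends of length and GC content removed was chosen after the data were seen. In it Grin2a fell from 0.49 to 0.32, Tanc2 from 0.33 to 0.22 and Arhgap32 from 0.37 to 0.22. Mex3b went from 0.79 to 0.82.

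**Figure D2:**
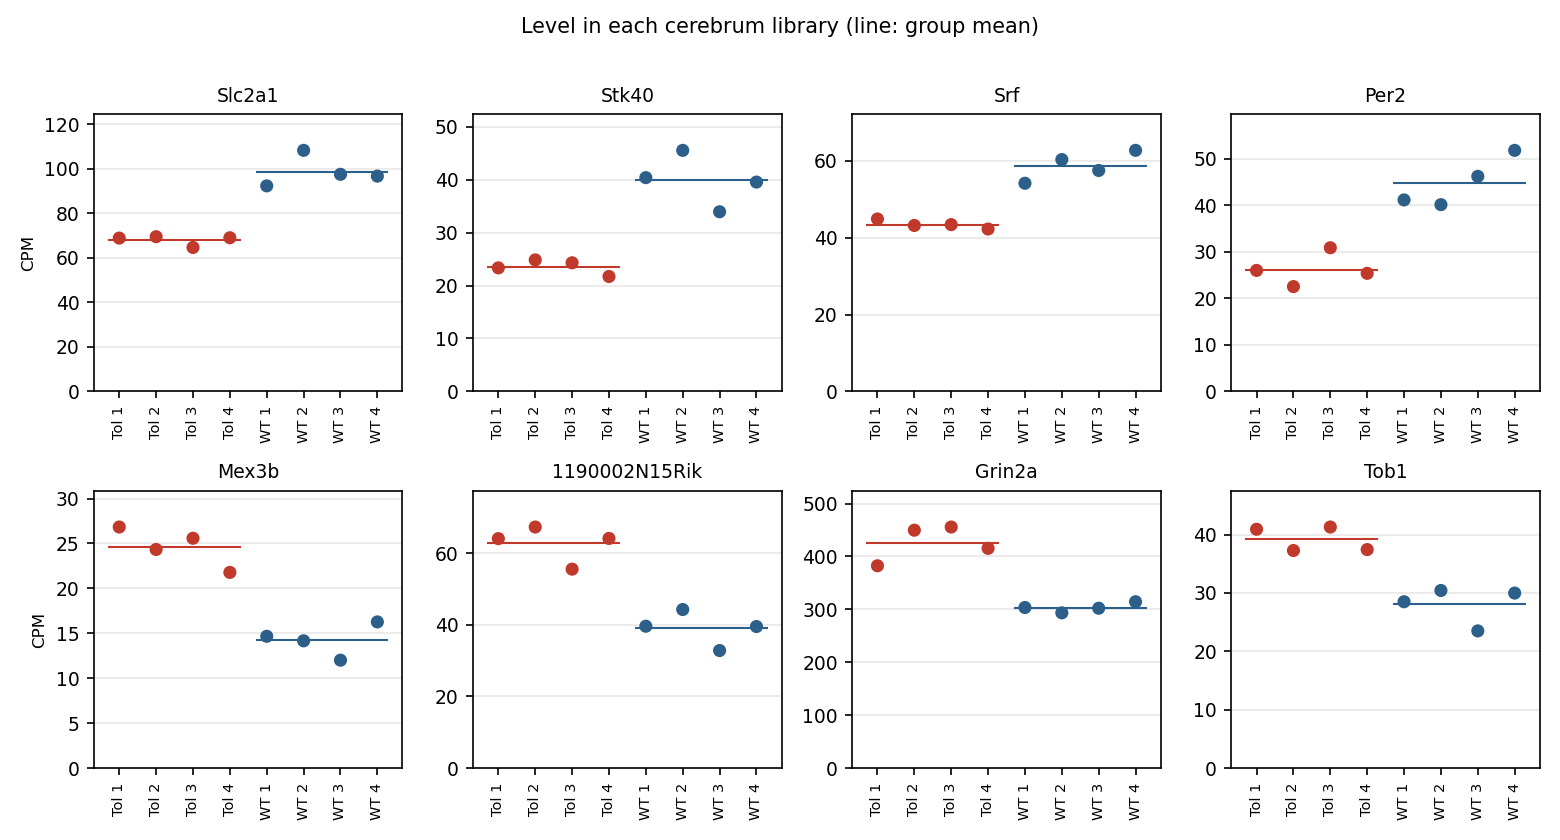
CPM of 8 genes in each cerebrum library, Tol in red and WT in blue, each point 1 library and each line the mean of 4. Slc2a1, Stk40, Srf and Per2 are lower in all 4 Tol libraries, and Mex3b, 1190002N15Rik, Grin2a and Tob1 higher, without overlap.

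Genes induced by glucocorticoids, the adrenal steroids that rise with stress and with the daily rhythm, had lower values in Tol as a list. Of the 18 genes, all tested, 10 had an unadjusted p under 0.05 and a lower level, a share of 55.6% against 4.84% of all genes, and 0 a higher one. This list and those that follow were chosen with earlier results of these data known. Such shares describe the lists and do not test them. Their median log2 fold change was -0.45 against -0.00488 for all genes, and 7 of the 18 did not overlap between the groups, against 3.12% of all genes. The list had a mean log2(CPM + 1) of 4.50, 4.44, 4.78 and 4.41 in Tol 1 to Tol 4 and of 5.06, 5.03, 4.79 and 4.96 in WT 1 to WT 4, with Tol 3 and WT 3 closest to each other. Without Tol 4 and WT 3 the median was -0.48 with 9 genes lower at an unadjusted p under 0.05, and with 2 region components it was -0.35. DESeq2 called 6 of the 18, all lower. None passed edgeR's adjusted p of 0.05, with or without the 2 region components over all list members, and 5 did, all lower, with the components over tested members only.

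Per1, a clock gene that glucocorticoids and neuronal activity both induce, was at 63.7, 36.3, 69.7 and 36.7 CPM in Tol 1 to Tol 4 and at 148, 167, 84.3 and 145 CPM in WT 1 to WT 4 (log2 fold change -1.40, SE 0.27, edgeR adjusted p = 0.190). Sgk1, a kinase of the same response, was at 43.8, 41.2, 48.0 and 39.6 CPM in Tol 1 to Tol 4 and at 64.5, 82.5, 103 and 53.1 CPM in WT 1 to WT 4. Mt1, a metallothionein, was at 59.1, 60.2, 70.2 and 52.1 CPM in Tol 1 to Tol 4 and at 89.0, 86.2, 74.2 and 86.0 CPM in WT 1 to WT 4. These 3 genes were lower in every Tol library. Cdkn1a, also a p53 target, was at 17.1, 17.5, 14.98 and 17.9 CPM in Tol 1 to Tol 4 and at 26.8, 42.9, 24.1 and 27.3 CPM in WT 1 to WT 4. The receptor itself and a chaperone it induces overlapped between the groups. Nr3c1, the glucocorticoid receptor, had a log2 fold change of 0.15 (SE 0.09), and Fkbp5 was at 17.99, 16.2, 25.7 and 22.9 CPM in Tol 1 to Tol 4 and at 31.8, 18.4, 27.6 and 31.6 CPM in WT 1 to WT 4.

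Immediate early genes, which neurons switch on within minutes of activity, also had lower values. Of 20 genes, 8 had an unadjusted p under 0.05 and a lower level, 40.0% against 4.84% of all genes. A higher level at that p was seen for 0, and the median log2 fold change was -0.73. This list too was chosen with earlier results known. Levels differed widely within each genotype. The list had a mean log2(CPM + 1) of 5.78, 4.64, 5.91 and 4.94 in Tol 1 to Tol 4 and of 6.23, 6.34, 5.29 and 6.25 in WT 1 to WT 4, so Tol 2, Tol 4 and WT 3 were low and only Sik1 did not overlap. Without Tol 4 and WT 3 the median was -0.78, and 7 genes were lower at an unadjusted p under 0.05. DESeq2 called 4 of the 20, all lower, and with edgeR 0 passed with 2 region components over all list members and 2 with those over tested members only.

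Nr4a3, an orphan nuclear receptor, was at 26.2, 13.7, 41.5 and 19.0 CPM in Tol 1 to Tol 4 and at 112, 71.7, 35.7 and 117 CPM in WT 1 to WT 4. Fosl2, a subunit of AP-1, was at 50.5, 46.7, 56.5 and 46.9 CPM in Tol 1 to Tol 4 and at 130, 118, 51.6 and 113 CPM in WT 1 to WT 4. In both genes WT 3 lay among the Tol libraries and the other 3 WT libraries above them. Fos was at 59.5, 10.8, 66.4 and 18.5 CPM in Tol 1 to Tol 4 and at 73.1, 87.0, 22.2 and 74.9 CPM in WT 1 to WT 4, so that the groups overlapped widely (edgeR adjusted p = 0.743). Npas4 and Jun had log2 fold changes of -0.02 and 0.06, and Btg2 had one of 0.77 (SE 0.47). Of the 11 late activity-regulated genes, such as Bdnf and Vgf, 2 were lower at an unadjusted p under 0.05, with a median of -0.25. That is 18.2%, against 4.84% of all genes.

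Among clock genes, lower values were found in 2 of the period genes and in a repressor. Per2 was at 26.0, 22.5, 30.9 and 25.4 CPM in Tol 1 to Tol 4 and at 41.1, 40.1, 46.2 and 51.8 CPM in WT 1 to WT 4 (log2 fold change -0.77, SE 0.12, edgeR adjusted p = 0.159). Bhlhe40, a repressor that acts with the clock, was at 76.8, 85.1, 103 and 66.4 CPM in Tol 1 to Tol 4 and at 143, 180, 135 and 140 CPM in WT 1 to WT 4. Neither overlapped. Of the 17 clock genes, 3 were lower (Per1, Per2 and Bhlhe40) and 1 higher (Per3) at an unadjusted p under 0.05. These are 17.6% and 5.88%, against 4.84% and 4.81% of all genes. Arntl, Nr1d1 and Dbp, which cycle strongly with the time of day, had log2 fold changes of 0.06, -0.01 and -0.04. The hour at which the tissue was taken is not in the labels, and its part in these values was not tested.

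The promoters of these genes were read in RefSeq sequence (GRCm38.p6) for 2 motifs that are their own reverse complement, the cAMP response element TGACGTCA and the E-box CACGTG bound by clock factors, in the 250 bases before the first listed start. The cAMP response element was in 2 of the 15 immediate early promoters found (13.3%) against 1.62% of all 27025 promoters and 2.64% of those of tested genes. The E-box was in 5 of the 15 clock promoters found (33.3%), Per1 included, against 6.05% of all and 8% of those of tested genes. None of the 11 promoters found for the 15 genes with the lowest p among those lower in Tol held either motif. Of the 12 promoters found for the 15 with the lowest p among those higher, 2 held the E-box (16.7%) and 0 the cAMP response element. The E-box was also in 3 of the 15 immediate early promoters (20%) and in 2 of the 16 glucocorticoid promoters found (12.5%). A match is a description of the letters only. Stretches of 3 promoters are given 5′ to 3′ on the gene's strand with the motif in capitals: Per1 and Gadd45b, which had lower values in Tol at an unadjusted p under 0.05, with their E-boxes, and Dusp1, which did not (log2 fold change -0.32, SE 0.41), with its cAMP response element. They are credited to RefSeq and lie at chr11:69098763-69098808 (plus strand), chr10:80929886-80929931 (plus strand) and chr17:26508588-26508635 (minus strand). The Dusp1 stretch also holds an E-box, which is left in lower case.
Per1: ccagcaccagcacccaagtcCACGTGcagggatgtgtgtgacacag
Gadd45b: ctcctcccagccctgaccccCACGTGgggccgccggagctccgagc
Dusp1: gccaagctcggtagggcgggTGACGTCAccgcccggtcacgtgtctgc

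Stress pathways that an unfolded protein could engage gave small differences. Of the 20 genes of the ATF4 and integrated stress response, 19 were tested. Of these, 5 were lower at an unadjusted p under 0.05, 26.3% against 4.84% of all genes, and 0 higher, with a median of -0.20. The stress lists were chosen with earlier results known, so the share is a description only. Gpt2 was at 43.7, 41.5, 54.0 and 45.3 CPM in Tol 1 to Tol 4 and at 63.4, 69.9, 66.9 and 67.3 CPM in WT 1 to WT 4, without overlap, while Atf4 and Ddit3 had log2 fold changes of -0.14 (SE 0.10) and -0.20 (SE 0.13). The IRE1-XBP1 list had 1 of 14 genes lower, Xbp1, and a median of -0.03, and the ATF6 and chaperone list 0 of 13, with a median of -0.10. Of the 20 genes of the HSF1 heat shock response, 3 were lower and the median was -0.06, and of 31 proteasome genes 3 were lower with a median of -0.04. None of these lists held a gene that was higher in Tol at an unadjusted p under 0.05. For autophagy and lysosome 2 of 22 were lower, with a median of -0.04. For the NRF2 response it was 1 of 13, with a median of -0.09, and for p53 targets 2 of 13, Cdkn1a and Plk3, with a median of -0.09.

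Of 20 interferon-induced genes, 4 (20%) were higher at an unadjusted p under 0.05, against 4.81% of all genes. They were Ifit3, Mx1, Usp18 and Iigp1. Of the 20, 0 were lower at that p, and the median was 0.15. Earlier results were known when this list was chosen. Ifit3 was at 7.20, 7.40, 6.57 and 8.41 CPM in Tol 1 to Tol 4 and at 6.21, 6.15, 5.90 and 5.28 CPM in WT 1 to WT 4 (edgeR adjusted p = 0.383). The other 3 were at most at 3.03 CPM in any library, and Isg15 and Irf7 had log2 fold changes of -0.11 and -0.05. Antigen presentation had 0 of 14 genes under that p and a median of 0.03. Cytokines and NF-kB targets had 1 of 7 tested genes lower, Nfkbia. Reactive astrocyte genes had 0 of 10 tested, and disease-associated microglia genes 2 of 10, Tyrobp and Gpnmb, both lower.

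Metabolic lists had medians from -0.14 to -0.05, against -0.00488 for all genes. In cholesterol synthesis, 6 of 20 genes were lower at an unadjusted p under 0.05, 30.0% against 4.84% of all genes. Of the 20, 0 were higher at that p, and the median was -0.14. The metabolic lists were chosen with earlier results known, so the share is a description only. Cyp51 was at 54.6, 54.2, 53.4 and 60.7 CPM in Tol 1 to Tol 4 and at 71.9, 72.7, 61.6 and 65.6 CPM in WT 1 to WT 4, while Srebf2, Insig1 and Hmgcs1 had log2 fold changes of -0.06, -0.06 and -0.03. Of 17 tested targets of hypoxia-inducible factors, 4 were lower (Slc2a1, P4ha1, Ddit4 and Ndrg1) and 2 higher (Pdk1 and Tfrc), with a median of -0.05. Of 22 genes of glucose and lactate transport and glycolysis, 1 was lower, Slc2a1, 1 was higher, Slc16a7, and the median was -0.10. Of 83 tested nuclear-encoded subunits of oxidative phosphorylation, 10 were lower and 1 higher, with a median of -0.09. Without Tol 4 and WT 3 there were 2 lower, with a median of -0.05, and with 2 region components the median was -0.18. The 13 mitochondrially encoded mRNAs had a median of -0.05 and took between 6.93% and 9.02% of the counts of a library.

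Of 82 tested cytosolic ribosomal protein genes, 29 were lower at an unadjusted p under 0.05, 35.4% against 4.84% of all genes. Of the 82 genes, 0 were higher at that p, and the median was -0.17. These genes too were listed with earlier results known, so the share describes them and is no test. Their mean log2(CPM + 1) was 5.52, 5.47, 5.39 and 5.48 in Tol 1 to Tol 4 and 5.51, 5.65, 5.62 and 5.75 in WT 1 to WT 4, so Tol 1 and WT 1 were alike. The lowest p among them was that of Rps29, whose log2 fold change was -0.49 (SE 0.11, edgeR adjusted p = 0.225). These genes are short and have many processed pseudogenes, with which reads can be shared. Across the 15554 genes with a length, the log2 fold change had a rank correlation of 0.157 with transcript length and of -0.272 with GC content, a description across genes that are not independent. Tol 4 deviated most from the other libraries, with a rank correlation with GC content of -0.497, against -0.157 in Tol 3 and 0.232 in WT 2, the lowest and highest of the others. With the trends of length and GC content removed, an alternative chosen after the data were seen, 26 ribosomal genes were lower with a median of -0.13. The glucocorticoid list then had a count of 10 lower genes and a median of -0.40. Microglia genes had 0 lower, against 3 without this step, and the log2 fold change of Grin2a fell from 0.49 to 0.32.

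At the synapse, single receptor subunits and scaffolds had higher values, while the list medians were small. Of 25 glutamate receptor and postsynaptic genes, 3 (12%) were higher at an unadjusted p under 0.05, against 4.81% of all genes. They were Grin2a, Grin2b and Gria3. Of the 25, 0 were lower at that p, 14 had a higher and 11 a lower point estimate, and the median was 0.03. With the trends of length and GC content removed, 2 were higher and 1 lower, and the median was still 0.03. Grin2a then fell from 0.49 to 0.32. Grin2b was at 1075, 949, 1164 and 1145 CPM in Tol 1 to Tol 4 and at 925, 590, 655 and 888 CPM in WT 1 to WT 4, and passed with 2 region components (edgeR adjusted p = 0.0428, against 0.0735 with DESeq2 and no covariate). Of 15 genes of vesicle release, Pclo and Bsn, the large scaffolds of the active zone, were higher (13.3%). The median was 0.07, and -0.01 with 2 region components. Pclo was at 483, 456, 561 and 521 CPM in Tol 1 to Tol 4 and at 453, 313, 313 and 372 CPM in WT 1 to WT 4, and passed with 2 region components (edgeR adjusted p = 0.0191; from 0.0109 to 0.720 over all alternatives). Of 13 tested GABA-A receptor subunits, 1 was higher (7.69%), Gabrb2.

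**Figure D3:**
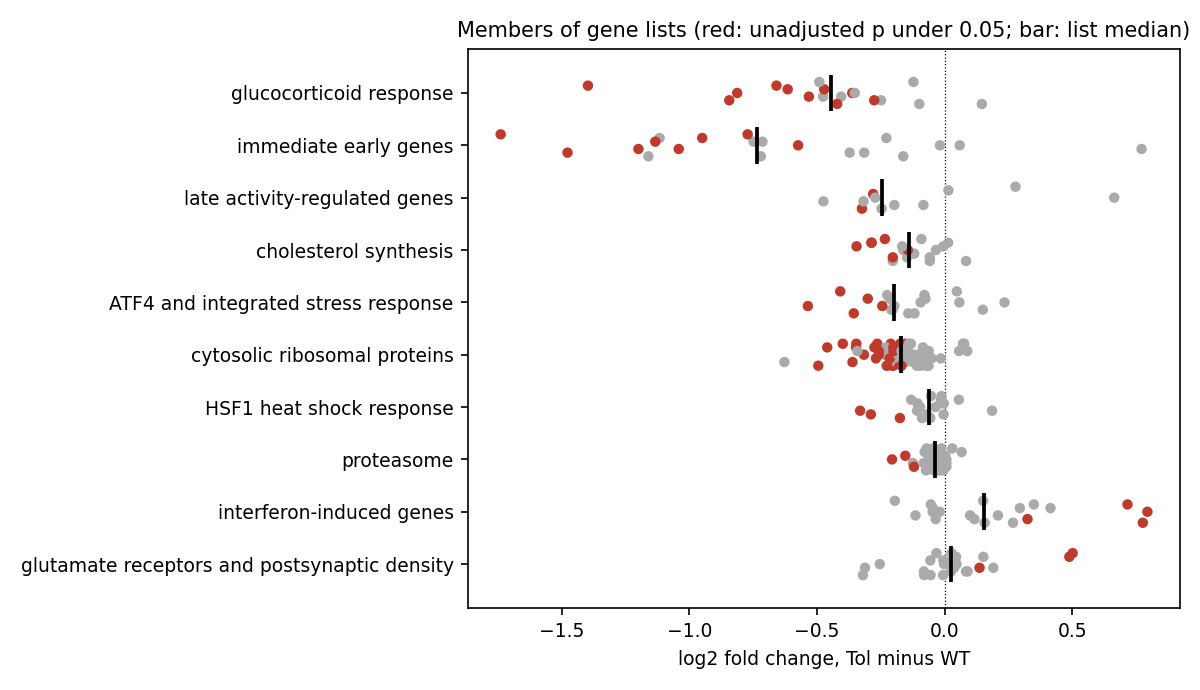
Log2 fold change (Tol minus WT) of every tested member of 10 gene lists, each point 1 gene, red where the unadjusted p is under 0.05, and bars at the list medians. Medians run from -0.73 for immediate early genes to 0.15 for interferon-induced genes.

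Among cell types, the neuronal list of 10 genes had 0 under an unadjusted p of 0.05 and a median of 0.06. Of all genes tested, 4.81% were higher and 4.84% lower at that p. Of 15 pallial markers 3 were higher (20%), Mef2c and Kcnv1 among them. Of 8 upper-layer markers 2 were higher (25%), Unc5d and Rasgrf2, and 1 lower (12.5%), Pou3f1. Mef2c was at 1062, 936, 850 and 874 CPM in Tol 1 to Tol 4 and at 669, 822, 672 and 644 CPM in WT 1 to WT 4, without overlap (edgeR adjusted p = 0.267). Of 9 deep-layer markers 0 were under that p. Of the 16 striatal markers 0 were under it, all had a lower point estimate, and the median was -0.56. The median of the same 16 was 0.41 with 2 region components made from all members of the region lists. It was -0.003 with 2 components made from tested members only. Without Tol 4 and WT 3 the median was 0.32, with 5 genes higher at that p. The sign of this list therefore changed without these 2 libraries. Of the 7 tested hippocampal markers 1 was lower, Fibcd1, and the median was -0.64, and 0.08 with 2 region components. The components were made from the region lists, the striatal and hippocampal ones included, so these medians draw on the markers themselves.

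Of 16 oligodendrocyte genes, 15 had a lower point estimate in Tol, 1 of them, Cnp, at an unadjusted p under 0.05, and the median was -0.24. Mbp, the most abundant, was at 1858, 1866, 2090.2 and 2021 CPM in Tol 1 to Tol 4 and at 1885, 2819, 2479 and 1758 CPM in WT 1 to WT 4, so only WT 2 and WT 3 stood above the Tol libraries. Of all genes, 4.84% were lower and 4.81% higher at an unadjusted p under 0.05. Of 14 astrocyte genes 3 were lower (21.4%), Gjb6, Gja1 and Agt, and 1 higher (7.14%), Sox9, with a median of -0.08. Of 17 microglia genes 3 were lower (17.6%), C1qc, C1qb and Tyrobp, with a median of -0.05. With the trends of length and GC content removed, 0 microglia genes were lower. Oligodendrocyte precursors had 2 of 8 lower (25%), Gpr17 and Neu4, with a median of -0.05. GABAergic neurons had 1 of 14 lower (7.14%), Sst, with a median of -0.11, and 0 lower with those trends removed. Pericytes and smooth muscle had 2 of 11 higher (18.2%), with a median of 0.12.

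Lists of other regions and cells rested on fewer tested genes, so that 1 gene is a large share, 11.1% in the thalamic list. Of all genes tested, 4.84% were lower and 4.81% higher at an unadjusted p under 0.05. At an unadjusted p under 0.05, 1 of 9 thalamic markers was lower (Rgs16), 1 of 4 hypothalamic (Trh), and 0 of 4 habenular, 0 of 4 midbrain and 0 of 6 cerebellar markers were under it. Of hindbrain, basal forebrain and pituitary lists 1 gene each was tested, Tph2, Slc5a7 and Tshb, and none was under it. The pituitary list, with Prl its most abundant gene, summed to 51.7 CPM in Tol 3 and to between 2.15 and 4.09 CPM in the other libraries. Of olfactory bulb markers 1 of 4 was higher (Shisa3), of border macrophage and leukocyte markers 1 of 4 (Mrc1) and of markers of neuroblasts and dividing cells 1 of 6 (Dcx). For ependyma it was 0 of 7, for choroid plexus 0 of 5, for erythroid cells 0 of 5 and for cold-inducible RNA-binding proteins 0 of 2.

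Leptomeningeal and fibroblast genes had a median of 0.56, with 2 of 11 higher at an unadjusted p under 0.05, Col1a1 and Col1a2. The median was 1.07 with 2 region components over all list members, where 0 passed edgeR's adjusted p of 0.05. With those over tested members only it was 1.13, and 4 genes passed, all higher. Without Tol 4 and WT 3 it was 0.33, with 0 genes under the unadjusted p. Col1a1, the gene beside the transgene, was at 11.8, 18.3, 6.48 and 9.86 CPM in Tol 1 to Tol 4 and at 9.31, 3.72, 4.65 and 6.91 CPM in WT 1 to WT 4, with overlap (log2 fold change 0.91, SE 0.35, edgeR adjusted p = 0.446). WT 2 and WT 3, the libraries lowest in Col1a1, were also the lowest in the list as a whole, and the part of meninges in the value was not tested. At an unadjusted p under 0.05, 4.81% of all genes tested were higher and 4.84% lower. Of 35 tested genes within 1 Mb of Col1a1, 2 were higher (5.71%) and 3 lower (8.57%) at that p, with a median of -0.001. Tob1, 1 of the 2, was at 40.9, 37.3, 41.3 and 37.4 CPM in Tol 1 to Tol 4 and at 28.5, 30.4, 23.5 and 30.0 CPM in WT 1 to WT 4.

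Whether these differences were particular to the cerebrum was tested against the other organs. Organs with the same number may come from the same mouse, and the fit treated every library as a separate mouse. Between cerebrum and cerebellum, with 2 Tol and 4 WT cerebella, the Tol effect differed for 0 of 17130 genes (0%) at an adjusted p under 0.05 with edgeR, and 1043 had an unadjusted p under 0.05. Without cerebellum Tol 1, which leaves a single Tol cerebellum assumed to vary like the other groups, there were 1503, and without cerebellum WT 4 there was 1. Between cerebrum and thymus it differed for 19 of 17774 (0.107%), 9 of them among the 30 genes with the lowest p in cerebrum. Those 30 were chosen by the cerebrum effect, which enters the difference, so the choice favours the count of 9. Not all of the 19 differences lie in the cerebrum. Ildr2, Banp and Hsph1 had log2 fold changes of 0.24, 0.003 and -0.07 in cerebrum and of -1.80, -1.12 and -1.22 in thymus. Slc2a1 had a log2 fold change of 0.24 in thymus, and the difference of -0.78 had an edgeR adjusted p of 0.00387. In cerebellum Slc2a1 was lower too, at -0.41 (SE 0.21), a difference of -0.145 from cerebrum (edgeR adjusted p = 0.902). Stk40 was likewise lower there, at -0.31 (SE 0.22), while Srf was higher, at 0.24 (SE 0.11). Leaving out 1 library at a time gave between 2 and 1111 such genes, the latter without thymus Tol 1, and of the 19 only Slc2a1 and Ildr2 passed in all 16 of these fits. The other differences, those of Stk40, Srf, Slc25a25, Nab2, N4bp3, Klf10, Grasp and 1190002N15Rik among them, were each lost without some library.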

How the data were processed

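Each library is the frozen cerebrum of 1 mouse, read single-end from TruSeq Stranded mRNA libraries. The deposited values are estimated counts per gene, which the authors made with Salmon 0.14.1 on GRCm38 with the Tol transcript added, and which are whole numbers. The submitters' notes also name edgeR 3.9. How transcripts were summed to genes and whether strand was used are not given in the sources used here.

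Of 34584 gene IDs, 34530 were found in the GENCODE annotation. Counts were tested with edgeR 4.0.16 (R 4.3.3) after TMM scaling and filterByExpr, without covariates, by the quasi-likelihood test with Benjamini-Hochberg adjustment over all 15596 genes. Levels are CPM on TMM-scaled library sizes. Interactions with cerebellum and thymus were fitted with a mean per group, each library taken as a separate mouse. The organ labels share numbers, so organs may come from the same mice, but no pairing by mouse was fitted for the interactions. DESeq2 1.42.0, limma 3.58.1 (voom), other scalings and filters, region covariates, a replicate block, a fit of all 22 libraries and leaving out each library were alternatives. A level under 3 counts, 0.126 to 0.207 CPM, was treated as not detectable, which covers counting error only. Pairs of libraries of 1 genotype had a chi-square per degree of freedom of 6.52 to 43.4, so none was counted as a duplicate. The test was also run on simulated data, and the outcome is not reported here.

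Named genes are the 15 lowest p in each direction, the 20 with the largest SD over the 8 libraries, the 5 highest and lowest of each library, and, of each list, the lowest p, the 2 most abundant and those that check the tissue. Other list members are given as examples, chosen after their values were seen. Members and lists were chosen with earlier results of these data known. Values of some single genes are not reported here.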

Additional observations from a re-analysis of the deposited data

Results flagged for a closer look

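Within groups of 4 libraries, 17 of 176 sets of values had 1 library far from the rest, while chance gives about 1 in 20, or 8.8. The total count of Tol 4, 14543698, was far below the nearest Tol library, at 22147602. The Tol transcript in WT 3, at 0.104 CPM, came from 2 counts. On the scale of mean log2(CPM + 1), Tol 3 was high in hippocampal markers at 3.08, and Tol 2 was low in deep cortical layers at 4.93 and in neuroblasts and dividing cells at 2.24. Tol 4 was high in midbrain markers at 1.149 and in cholinergic markers of the basal forebrain at 1.56.

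WT 3 was high in striatal markers at 7.35, in cholinergic markers of the basal forebrain at 2.46 and in GABAergic neurons at 5.28, and low in erythroid cells at 3.01 and in immediate early genes at 5.29. WT 4 was high in cerebellar markers at 2.93 and WT 2 in ependyma at 1.35. Antigen presentation was low in Tol 3 at 2.47. Of single genes, Tanc2 was low in Tol 2 at 297.8 CPM and Slc2a1 in Tol 3 at 64.6 CPM.

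The Tol effect differed between cerebrum and thymus for 9 of the 30 genes with the lowest p, a count favoured by their choice on the cerebrum effect. On the log2 scale, the cerebrum effect less the thymus effect was -0.78 for Slc2a1 (edgeR adjusted p = 0.00387), -0.56 for Slc25a25 (0.0279), -1.05 for Nab2 (0.0334) and 0.70 for 1190002N15Rik (0.0334). It was -0.63 for Stk40, -0.55 for Srf, -0.94 for N4bp3 and -1.01 for Klf10 (edgeR adjusted p = 0.0341 each), and -0.65 for Grasp (0.0449).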

How the results depend on the processing

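The count of genes with an adjusted p under 0.05 was 0 with edgeR and 0 with DESeq2's size factors, other filters, robust moderation, limma-voom and length and GC trends removed. It was 180 with DESeq2, 5 with 1 region component, 21 with 2, 1 with the pallial list and 22 with all 22 libraries in 1 fit. Chosen after seeing the data, 2 components over tested members only gave 186 and leaving out Tol 4 and WT 3 gave 2, so the count depends strongly on how the dissection is described. Leaving out 1 library gave 0 to 6, the 6 without WT 3. At an unadjusted p under 0.05 there were 1505 genes, 2707 with 2 components, 2790 with those over tested members only, and 1164 to 1730 without 1 library. Genes without overlap were 1384 to 1826 without 1 library, against 1015 with all libraries, but smaller groups overlap less by construction. An absolute log2 fold change over 1 was found for 4380 genes without a filter, where genes with few counts enter, 42 with at least 10 counts in every library, and 144 to 231 without 1 library. The Tol effect differed between cerebrum and cerebellum for 0 to 1503 genes without 1 library, and between cerebrum and thymus for 2 to 1111, and for 48 with at least 10 counts in every library. The cause was not tested.

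With the replicate block, 0 genes had an adjusted p under 0.05 with edgeR and 1539 an unadjusted one. Same-numbered libraries had correlations of 0.298, 0.597, -0.51 and -0.058. Tol 2 correlated best with WT 2, its own number, and Tol 4 with WT 3, the other library high in striatal markers. Differences in dissection enter these correlations, so they cannot decide whether same-numbered mice are paired.

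The 79 named genes counted here are those with the lowest p, in each direction or of a list, without the 20 of largest SD. Of their 1814 log2 fold changes under 23 alternatives, 1711 kept direction and side of the threshold and 92 newly passed it. The other 11 reversed, none of them from a called value. Some of the 20 genes left out also reversed: without 1 library, Adora2a ran from -2.842 to 3.5 and Drd2 from -3.513 to 2.946. Gng7 was at 0.206 with the pallial list and from -1.37 (without Tol 4) to 0.304 (without WT 3) without 1 library. Tph2 was at -0.068 with 2 components, -0.087 with those over tested members, and from -0.081 (without WT 4) to 0.364 (without WT 3). Slc5a7 was at 0.342 with 2 components, 0.836 with the pallial list, and from -2.301 (without Tol 4) to 1.429 (without WT 3). Tshb ran from -0.118 (without WT 1) to 0.077 (without WT 2), above 0 also without Tol 4, and Prlr from -0.623 (without WT 3) to 0.05 (without WT 1). The cause was not tested. Depth limits Tol 4 most, where 3 counts are 0.207 CPM.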
